A study of Nematostella vectensis and Apis mellifera and Strongylocentrotus purpuratus with 22 samples.

Results

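The sea anemone (Nematostella vectensis) windows in which the oocyte methylome differed from those of 3 embryo stages of the Florida population were examined. The genome was cut into windows of 1000 bp, and a window was tested against an embryo if it held at least 3 CpGs with at least 5 reads in the oocyte and in that embryo. Of 258747 windows tested in all 3 comparisons, 1306 differed from the oocyte at cleavage, blastula and gastrula alike, 678 with a higher methylation level in the embryos and 628 with a lower level. The libraries were whole-genome bisulfite sequencing (WGBS) libraries of genomic DNA from wild-type animals kept in the laboratory, 1 each for oocytes, cleavage embryos, blastulae and gastrulae sampled from Florida. The labels give 1 replicate for oocytes and blastulae, and 2 replicates pooled into 1 set of calls for cleavage embryos and gastrulae, for each of which the study's supplement lists a single sample. Sperm from Florida, and sperm, cleavage embryos and blastulae from Massachusetts, were not used to choose windows and served as further libraries, so that 8 of the 22 samples of the series were read. The sources used here do not give the number of animals behind a library or the parents of the embryos. The calls of a stage are 1 set of counts, so no difference has a replicate check, and tests on reads compare libraries and not stages.

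In WGBS, bisulfite turns unmethylated cytosines into bases read as thymine, so the methylation level of a CpG is the share of its reads that kept the cytosine, from 0 to 1. In many invertebrates, methylation is mosaic: long methylated stretches, often over gene bodies of steadily expressed genes, alternate with stretches that carry almost none. A maintenance methyltransferase copies the pattern to the new strand at each cell division, and de novo methyltransferases can add marks to unmethylated CpGs. In mammals, most of the gametes' methylation is erased after fertilization and laid down again later. The comparison of oocyte with embryos asks how far the pattern of the oocyte library is found in the embryo libraries. Since the parents of the embryos are not given, it cannot say whether an embryo keeps the pattern of its own oocyte. Words such as gain, loss, moved, began and ended describe embryo libraries relative to the oocyte library, and no embryo was followed over time. The level of a window is here the mean over its CpGs. Levels of a window in the oocyte and 3 embryo libraries are over CpGs with at least 5 reads in each of these libraries. In sperm and the Massachusetts libraries, levels are over CpGs with at least 5 reads in that library, so they can rest on other CpGs of the window. A window was called where Fisher's exact test on its reads gave a Benjamini-Hochberg adjusted p below 0.05 and the levels differed by at least 0.2.

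The oocyte library held 228033647 reads over CpGs, the cleavage library 144249874, the blastula library 389977166 and the gastrula library 344492956. Median reads per covered CpG were 27, 14, 48 and 41 in that order, 38 in Florida sperm and 9 to 13 in the Massachusetts libraries. Cleavage was thus the shallowest of the Florida embryos, and 15.9% of its reads lay on the 0.552% of CpGs deeper than 5 times its median.

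Across the genome, the oocyte and the embryos had almost the same mean level. Over 6798213 CpGs shared with cleavage, the level was 0.1138 in the oocyte and 0.1151 at cleavage, a difference of 0.00133 (95% binomial interval by the normal approximation, 0.00129 to 0.00137). Over 7333806 CpGs shared with blastula, the embryo was lower by 0.000988 (-0.000988, interval -0.00102 to -0.000957), and over 7332330 shared with gastrula, it was higher by 0.000593 (0.000561 to 0.000624). These intervals cover counting error only. The sign of the cleavage and blastula differences turned when reads were pooled over CpGs or when the level of unconverted DNA was subtracted, and the gastrula difference turned with the latter, so no direction of the genome-wide level can be read from these libraries.

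Windows kept their class far more often than they changed it. Of 193999 windows with an oocyte level below 0.2, 98.9% had an embryo mean below 0.2, and of 39600 windows with an oocyte level above 0.8, 94.1% stayed above 0.8. The 24618 windows between these bounds kept their class less often, with 85.6% between them, 5.10% below 0.2 and 9.32% above 0.8 in the embryo mean. The median absolute difference of a window from the oocyte was 0.00826 for cleavage, 0.00548 for blastula and 0.00582 for gastrula.

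Against this background, cleavage embryos differed from the oocyte in 3107 of 259245 windows (1.2%), 1534 higher (0.592%) and 1573 lower (0.607%) in the embryo. Blastulae differed in 2559 of 270167 windows (0.947%), 1391 higher (0.515%) and 1168 lower (0.432%), and gastrulae in 2570 of 269876 (0.952%), 1321 higher (0.489%) and 1249 lower (0.463%). At an adjusted p below 0.05 without a minimum difference, 9.88%, 9.57% and 8.78% of windows passed. The reads of a window share molecules and are not independent, which the test does not take into account. The same rule called fewer windows between embryos, 573 (0.214%) in blastulae and 569 (0.213%) in gastrulae when each was set against cleavage, and 89 (0.0316%) for gastrulae against blastulae. Gametes differed in more, with 4698 windows (1.77%) for the oocyte against Florida sperm.

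**Figure D1:**
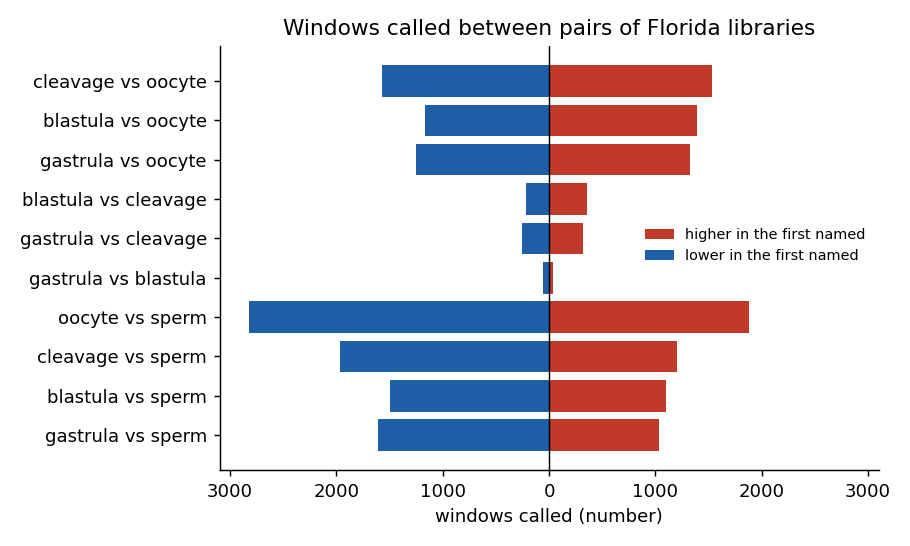
Number of 1000-bp windows called between pairs of Florida libraries (x axis), with windows higher in the first-named library to the right of 0 and windows lower in it to the left. The 3 comparisons with the oocyte called 2559 to 3107 windows, and the 3 comparisons between embryos called 89 to 573.

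The 1306 windows called in all 3 embryos were 0.505% of the windows tested in all 3 comparisons. Higher windows made up 0.262% and lower windows 0.243%, and 0 windows were called in opposite directions in different embryos. The 3 comparisons share the oocyte library, so a value that is off in the oocyte enters all of them, and no weight is put on the overlap itself. With the shallower cleavage library left out, 1862 windows were called in both blastula and gastrula, 977 higher and 885 lower. Leaving out a comparison can only keep or raise this number.

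In the higher windows, the median methylation level was 0.202 in the oocyte, 0.559 at cleavage, 0.544 at blastula and 0.541 at gastrula. The middle 50% of them lay between 0.0702 and 0.345 in the oocyte and between 0.408 and 0.691 at blastula. The windows thus had little or partial methylation in the oocyte and a level near the middle of the scale in the embryos, and rarely full methylation. In the lower windows, the median was 0.679 in the oocyte, 0.329 at cleavage, 0.364 at blastula and 0.356 at gastrula, with a middle range of 0.562 to 0.790 in the oocyte and 0.219 to 0.492 at blastula. Over all windows tested, the median was 0.0109 in the oocyte, 0.0152 at cleavage, 0.00846 at blastula and 0.0111 at gastrula.

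The differences from the oocyte were mostly moderate. The smallest of the 3 differences had a median of 0.270 in higher and 0.258 in lower windows, and the range over the 3 embryos had a median of 0.0635 and 0.0652, against 0.0107 in the tested windows not called in all 3. The embryos thus varied more among themselves in the called windows than in other windows, and the distance from the oocyte was set by the minimum of 0.2. Called and other windows were not matched for level, and 75.1% of all windows with levels in the oocyte and embryos lay below 0.2 in the oocyte. The embryos were all at least 0.3 away from the oocyte in 235 higher and 185 lower windows, at least 0.4 in 66 and 55, and at least 0.5 in 22 and 12. In tests between the embryos themselves, 0.159% to 2.21% of the called windows were called again, against 0.0316% to 0.214% of all windows, also without matching for level.

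**Figure D2:**
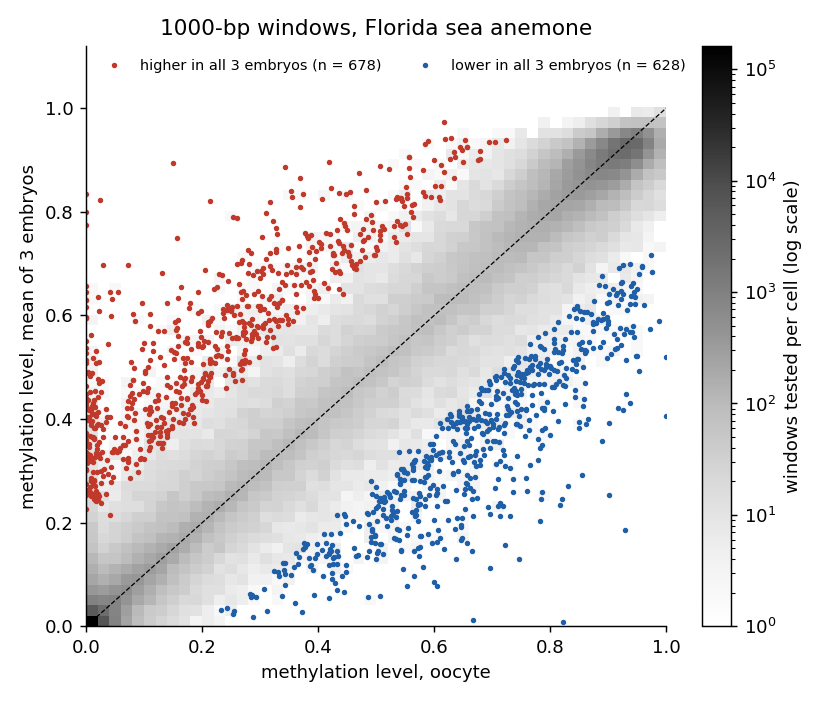
Methylation level of 1000-bp windows in the oocyte (x axis) and mean level in the 3 embryos (y axis), with all windows tested as a grey density on a log scale and called windows as points, red where higher and blue where lower in all 3 embryos. Most windows lie at the lower left and upper right ends of the dashed line of equal levels, and the called windows lie along both sides of it, with few at the far corners.

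Complete switches between unmethylated and methylated were nearly absent. Of 677 higher windows with levels in all 4 libraries, 335 began below 0.2 in the oocyte, and 332 of these ended between 0.2 and 0.8 in the embryo mean while 3 ended above 0.8. The other 342 began between 0.2 and 0.8, and 69 of them ended above 0.8. Lower windows mirrored this: of 627, 147 began above 0.8, of which 145 became intermediate and 2 fell below 0.2, and 480 began between the bounds, of which 130 ended below 0.2. The windows called in all 3 embryos were drawn mainly from the intermediate class, with 3.34% of 24618 windows between 0.2 and 0.8 in the oocyte, 0.173% of those below 0.2 and 0.371% of those above 0.8. A window at either end of the scale can move in only 1 direction.

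Intermediate windows can also be borders, where a methylated stretch ends inside the window. Among windows with an oocyte level between 0.2 and 0.8 and a tested window on both sides, 36.3% of 19446 had 1 neighbour below 0.2 and 1 above 0.8 in the oocyte, but 12.0% of 249 higher and 8.65% of 393 lower windows did. An intermediate neighbour was present for 76.7% of these higher and 82.4% of these lower windows, against 50.7% of all intermediate windows. The called windows thus sat at borders less often than other intermediate windows of this library, and more often within broader partly methylated stretches. These are shares without a test, since neighbouring windows are not independent.

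Windows poor in CpGs were called more often. The share called in all 3 embryos was 0.754% where 3 to 9 CpGs were listed, 0.668% at 10 to 19, 0.557% at 20 to 29, 0.461% at 30 to 39 and 0.328% at 40 or more. Among windows with an intermediate oocyte level, the order was different, with 2.54% at 3 to 9 CpGs, 2.19% at 10 to 19, 3.28% at 20 to 29, 5.91% at 30 to 39 and 5.25% at 40 or more. The lower share among CpG-rich windows therefore did not hold within the intermediate class.

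Within a window, the CpGs moved to different extents. Of the 13368 CpGs in higher windows, 59.6% were higher by at least 0.2 in every embryo, and of the 14728 in lower windows, 58.3% were lower, against 0.749% and 0.742% of all CpGs, an excess that the choice of windows by these same values fixes. At least 50% of the CpGs moved this way in 468 higher and 466 lower windows, and every CpG did in 43 and 20. A CpG that moved the opposite way in all 3 embryos was found in 16 higher and 30 lower windows. Single CpGs were seldom at the ends of the scale afterwards, as 3.67% of CpGs in higher windows had an embryo mean above 0.9, and 11.2% in lower windows were at or below 0.1.

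**Figure D3:**
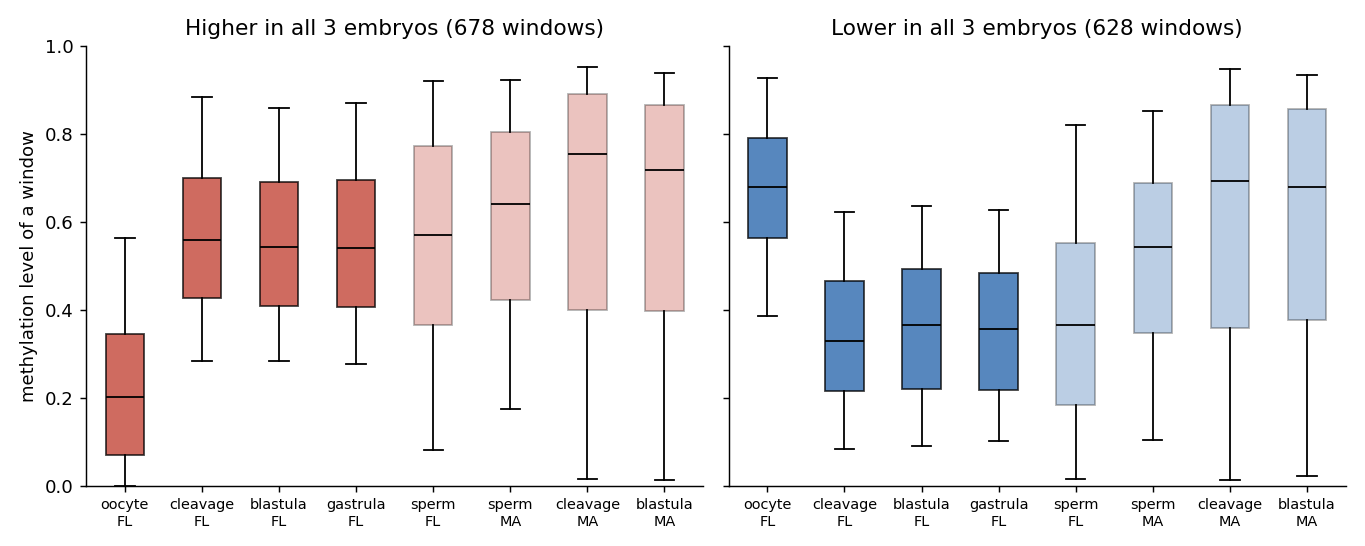
Methylation level (y axis) of the windows higher (left) and lower (right) in all 3 embryos in the 8 sea anemone libraries, FL for Florida and MA for Massachusetts, with boxes for quartiles, a line for the median and whiskers from the 5th to the 95th percentile. The dark boxes are the 4 libraries used to choose windows, and the pale boxes are libraries that were not used.

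The named windows were, in each direction, the 8 with the largest smallest-of-3 difference among windows with at least 10 CpGs, with at most 1 per run of adjacent called windows. No gene is given for them, because no annotation on the build of the calls was used here. Positions are on the build ASM20922v1 as deposited, counted from 1.

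The largest gain was in the window from 52001 to 53000 on scaffold_656. Its level was 0 in the oocyte over 12 CpGs, 0.861 at cleavage, 0.783 at blastula and 0.860 at gastrula. Florida sperm had 0.619, over 17 CpGs. None of its 77 oocyte reads was methylated, which allows up to 4.68% (exact Clopper-Pearson interval), and the largest adjusted p of the 3 exact tests was 1.18e-38. All 12 CpGs were at 0 in the oocyte, and they ranged from 0.545 to 1 at cleavage, 0.583 to 0.909 at blastula and 0.629 to 1 at gastrula. A second window on this scaffold, from 56001 to 57000, was also at 0 in the oocyte, over 13 CpGs and 82 reads. It had 0.695 at cleavage, 0.635 at blastula and 0.640 at gastrula. Massachusetts cleavage embryos and blastulae resembled the oocyte here, with 0.0154 and 0.00952 in the former window and 0 and 0.0105 in the latter. Massachusetts sperm was higher, with 0.116 in the former and 0.345 in the latter.

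The second largest gain, from 180001 to 181000 on scaffold_329, had 0.0230 in the oocyte over 25 CpGs, 0.762 at cleavage, 0.863 at blastula and 0.841 at gastrula. It was moved at all 25 CpGs, and sperm from Florida had 0.798. Its depth was uneven: relative to the median depth of each library, it had 0.447 times in the oocyte, and 2.48, 3.29 and 3.52 times in the embryos.

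These 3 windows share a regular arrangement of CpGs. On scaffold_656, 100% of the 46 CpGs listed in the window from 52001 and 85.2% of the 54 listed in that from 56001 had another CpG exactly 43 bp away, and on scaffold_329, 98.3% of the 58 had another 45 bp away. The sequence of these windows was not read, so whether they hold repeated units was not tested. The other 13 windows with the largest differences had at most 33.3% of their CpGs at any 1 distance between 10 and 200 bp. Windows in which at least 80% of CpGs shared such a distance made up 4.23% of 567 higher windows with 10 or more CpGs listed, 2.65% of 566 lower windows and 2.47% of all 235807 tested. The part of this spacing in the levels of these 3 windows was not tested.

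The remaining largest gains lay on other scaffolds. On scaffold_104, the window from 446001 to 447000 had 0.150 in the oocyte, 0.940 at cleavage, 0.859 at blastula and 0.885 at gastrula, and the window from 455001 to 456000 had 0.0289, 0.700, 0.641 and 0.752. On scaffold_189, the window from 321001 to 322000 had 0.0414 in the oocyte and 0.639, 0.637 and 0.660 in the embryos, over 28 CpGs. Florida sperm had 0.912, 0.749 and 0.876 in these windows in the order given. On scaffold_11, the window from 1628001 to 1629000 was at 0 in the oocyte over 74 reads (up to 4.86%) and at 0.614, 0.654 and 0.622 in the embryos.

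Oocyte depth was low in most of the largest gains. It was 0.196 to 0.492 times the library median in 7 of the 8, and 1.32 times in the remaining window, from 686001 to 687000 on scaffold_10. That window rested on 926 oocyte reads over 26 CpGs and had 0.214 in the oocyte, 0.808 at cleavage, 0.829 at blastula and 0.824 at gastrula, with 0.530 in Florida sperm (largest adjusted p of the 3 exact tests, 6.34e-118). Here 25 of 26 CpGs were higher in all embryos, and the level in sperm lay between those of the oocyte and the embryos. Over all higher windows, 20.2% had an oocyte depth under 0.5 times the median, as did 14.4% of lower windows and 10.9% of all windows. Among the 203652 windows with a depth of 0.5 to 2 times the median in all 4 libraries, 987 were called in all 3 embryos (0.485%), 487 higher and 500 lower, a share close to that over all windows.

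The largest loss was in the window from 203001 to 204000 on scaffold_265. Its level was 0.902 in the oocyte over 22 CpGs and 411 reads (91.2% of reads methylated, exact interval 88.1% to 93.8%), 0.245 at cleavage, 0.271 at blastula and 0.245 at gastrula, and all 22 CpGs fell in every embryo. Florida sperm, at 0.803, was methylated as well, so the embryos lay far below both gametes (largest adjusted p of the 3 exact tests between oocyte and embryos, 1.48e-93). The loss was deepest towards the start of the window: the CpG at 203201 had 0.958 in the oocyte and 0.0455, 0.148 and 0.110 in the embryos, while the CpG at 203756 had 0.952 and 0.600, 0.439 and 0.450, with only 5 reads at cleavage.

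The window from 2092001 to 2093000 on scaffold_10 showed the same order, with 0.696 in the oocyte, 0.661 in Florida sperm, and 0.103, 0.117 and 0.118 at cleavage, blastula and gastrula. On scaffold_3244, the window from 3001 to 4000 had 0.855 in the oocyte, 0.817 in sperm and 0.280, 0.234 and 0.363 in the embryos. In these windows, too, the gametes were alike and the embryos apart. The window from 140001 to 141000 on scaffold_78 differed: it had 0.902 in the oocyte over 47 CpGs, 0.349 in sperm, and 0.392, 0.398 and 0.387 in the embryos, so that embryos and sperm were alike. Massachusetts cleavage embryos and blastulae had 0.262 and 0.254 in the scaffold_10 window, 0.832 and 0.834 on scaffold_3244, and 0.303 and 0.301 on scaffold_78.

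Scaffold_10 held 3 more of the largest losses. The window from 753001 to 754000 had 0.605 in the oocyte over 48 CpGs, 0.112 at cleavage, 0.0476 at blastula and 0.0709 at gastrula, and 0.378 in sperm. The Massachusetts libraries had 0.0102 to 0.0132 in it, below all Florida libraries. The window from 599001 to 600000 had 0.666 in the oocyte, 0.172, 0.119 and 0.145 in the embryos and 0.513 in sperm, with 0.803 and 0.779 in Massachusetts cleavage embryos and blastulae, above the Florida oocyte, and that from 434001 to 435000 had 0.718, then 0.226, 0.238 and 0.231, and 0.606 in sperm, with 0.894 and 0.862 in the Massachusetts embryos. In all 3, Florida sperm lay between oocyte and embryos. The last of the 8, from 2103001 to 2104000 on scaffold_8, had 0.721 in the oocyte, 0.144, 0.162 and 0.166 in the embryos, 0.500 in sperm, and 0.922 and 0.936 in Massachusetts cleavage embryos and blastulae. Oocyte depth in the 8 losses was 0.692 to 1.31 times the library median, without the low values of the gains.

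At the threshold, windows differed little from those left out. The higher window with the smallest passing difference, 0.2002, ran from 963001 to 964000 on scaffold_4, with 0.0896 in the oocyte and 0.290, 0.281 and 0.323 at cleavage, blastula and gastrula. Its nearest neighbour outside, at 0.1999, ran from 497001 to 498000 on scaffold_53, with 0.278 in the oocyte and 0.526, 0.501 and 0.513 in the embryos. Among lower windows, the difference was 0.2001 inside, from 136001 to 137000 on scaffold_265, with 0.339 in the oocyte and 0.114, 0.114 and 0.139 in the embryos. Outside, it was 0.1999 in the window from 1860001 to 1861000 on scaffold_10, with 0.671 and 0.471, 0.429 and 0.448. Each smallest difference is the lowest over 3 comparisons, each on the CpGs shared by that pair of libraries.

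The called windows were clustered along the scaffolds. A called window lay directly beside another in 34.8% of higher and 38.5% of lower windows, whereas 0.618% of the other tested windows lay beside a called window. These shares were not matched for level. An intermediate neighbour in the oocyte was present for 50.7% of intermediate windows, against 16.5% of all windows with a tested window on both sides. All 296 pairs of adjacent called windows moved in the same direction. The higher windows formed 535 runs, of which 442 were single windows, 65 had 2 and 28 had 3 or more. The lower windows formed 475 runs, with 386 single windows, 56 of 2 and 33 of 3 or more. Neighbouring windows share methylated stretches and some read pairs, so adjacent windows are not independent events.

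The longest run of gains spanned 7 windows from 602001 to 609000 on scaffold_76, with a mean level of 0.176 in the oocyte, 0.472 at cleavage, 0.479 at blastula, 0.483 at gastrula and 0.464 in Florida sperm. The window directly before it, from 601001, had 0.542 in the oocyte and 0.630 to 0.696 in the embryos, and the window before that was at 0.00281 and 0.0112 to 0.0214. The window after the run, from 609001, was at 0.888 in the oocyte and 0.852 to 0.862 in the embryos. Beyond its borders, the oocyte and the embryos thus shared an unmethylated stretch on 1 side and a methylated stretch on the other. Runs of 7 were also found from 243001 to 250000 on scaffold_103, with 0.309 in the oocyte, 0.709, 0.716 and 0.719 in the embryos and 0.945 in sperm, and from 244001 to 251000 on scaffold_115, with 0.175, then 0.586, 0.532 and 0.534, and 0.764 in sperm. In these 2 runs, the embryos lay between the gametes.

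The longest run of losses spanned 8 windows from 204001 to 212000 on scaffold_123. Its mean level was 0.605 in the oocyte, 0.302 at cleavage, 0.241 at blastula, 0.238 at gastrula and 0.174 in Florida sperm. In the window from 209001, the oocyte had 0.577 and the embryos 0.170 to 0.181, while in the window from 206001, the oocyte had 0.780 and the embryos 0.532 to 0.573. In that from 204001, cleavage had 0.290, blastula 0.163 and gastrula 0.155. Outside the run, the oocyte was also higher, with 0.608 against 0.454 to 0.577 from 203001 and 0.725 against 0.462 to 0.530 from 212001. The window from 202001 had 0.679 in the oocyte and 0.278 to 0.364 in the embryos. The run on scaffold_702 from 28001 to 35000 had 7 windows, with 0.660 in the oocyte, 0.262, 0.256 and 0.230 in the embryos and 0.147 in sperm. On the same scaffold, the run of 6 from 19001 to 25000 had 0.641, then 0.266, 0.250 and 0.240, and 0.177. A run of 6 on scaffold_10, from 429001 to 435000, had a different order, with 0.654 in the oocyte, 0.573 in sperm, and 0.296, 0.233 and 0.236 in the embryos.

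**Figure D4:**
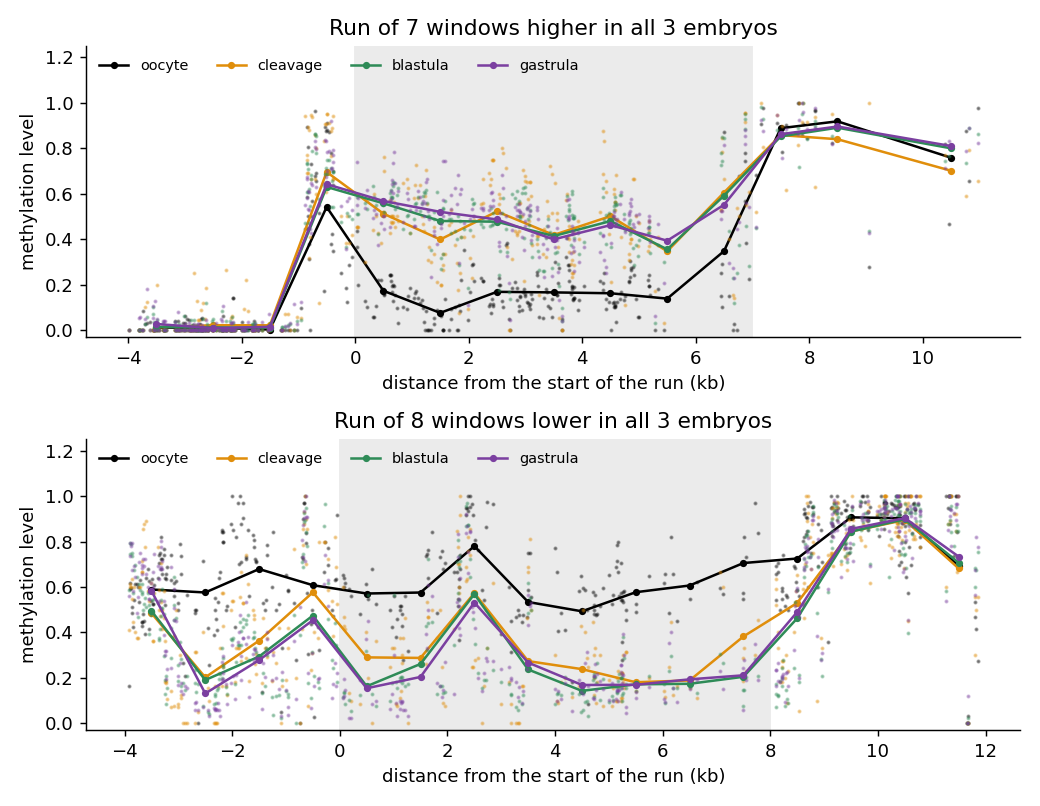
Methylation level of CpGs (pale points) and mean level of 1000-bp windows with at least 3 CpGs (lines) in the oocyte and 3 embryos (y axis) against the distance from the start of the run in kb (x axis), for the longest run of gains on scaffold_76 (top) and of losses on scaffold_123 (bottom), with the run shaded. The 3 embryo lines run apart from the oocyte within the shaded stretch, with cleavage above the other embryos in parts of the bottom panel. All 4 come near each other in the methylated stretch to its right. In the bottom panel, the oocyte also lies above the embryos directly outside the shaded stretch.

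Called windows lay on 425 of 7414 scaffolds with tested windows. The 10 scaffolds with the most held 231 of them, 17.7%, but 3.94% of the windows tested. These scaffolds were ranked by this count, so an excess is fixed by the choice. Scaffold_38, scaffold_47 and scaffold_103 each held 15, so the last places rest on a tie. Scaffold_10 held 44 among 1823 tested windows (2.41%, 14 higher and 30 lower), scaffold_8 held 34 among 2044 (1.66%), scaffold_76 held 29 among 821 (3.53%) and scaffold_78 held 25 among 785 (3.18%). All 19 among 401 on scaffold_178 (4.74%) were losses. Some scaffolds with few tested windows had larger shares, with 13 of 36 on scaffold_702 (36.1%, all lower) and 10 of 27 on scaffold_707 (37.0%, all higher). Of 441 scaffolds with at least 100 tested windows, 177 had no called window. With 0.505% of all tested windows called, a scaffold of this size can hold none, and no expected number was computed.

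Florida sperm, which played no part in the choice of windows, was in most cases on the embryos' side. Its median level was 0.571 in higher windows and 0.365 in lower windows, near those of the embryos. Sperm levels were not matched to the CpGs behind the oocyte and embryo levels. Sperm was nearer to the embryo mean than to the oocyte in 522 of 672 higher windows (77.7%) and in 466 of 622 lower windows (74.9%). These windows were chosen for an oocyte that differs from other libraries, so a tendency of this kind follows in part from the choice, and no test was made. Pearson's r of sperm with the embryo mean was 0.684 across the 672 higher and 0.673 across the 622 lower windows, as a description over windows that share libraries. With the oocyte, the r of sperm was 0.575 and 0.632.

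The windows were divided into 2 broad sets by the level in sperm, with a cut at a distance of 0.2 from the oocyte. Whether the distances form separate groups was not tested. In 478 higher windows (71.1%), sperm was at least 0.2 above the oocyte, with a median of 0.209 in the oocyte, 0.569 in the embryo mean and 0.674 in sperm. In 429 lower windows (69.0%), it was at least 0.2 below, with 0.662, 0.329 and 0.272. On a scale where 0 is the oocyte level and 1 the sperm level, the embryo mean was at a median of 0.815 (quartiles 0.676 to 1.02) in the former and 0.881 (0.716 to 1.05) in the latter. The choice asks that embryos be at least 0.2 from the oocyte and sets no distance from sperm, which moves this scale towards sperm.

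Windows chosen by the gametes alone gave another position. Of the windows called between oocyte and Florida sperm, 2637 lower in the oocyte could be placed, with a median of 0.318 in the oocyte, 0.664 in sperm and 0.489, 0.490 and 0.485 at cleavage, blastula and gastrula. The 1779 higher in the oocyte had 0.608 in the oocyte, 0.257 in sperm and 0.407, 0.432 and 0.421 in the embryos. On the same scale, the embryos were at a median of 0.498 (quartiles 0.269 to 0.720) and 0.548 (0.301 to 0.790), near the middle between the gametes. Here the choice asks that oocyte and sperm be at least 0.2 apart, so both ends of the scale were chosen. This in itself moves libraries outside the choice towards the middle, and no test was made. Single windows were spread widely about the middle, with 23.2% and 21.8% between 0.4 and 0.6.

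In the other set, sperm resembled the oocyte. Sperm lay within 0.2 of the oocyte in 192 higher windows (28.6%), with medians of 0.186 in the oocyte, 0.235 in sperm and 0.484 in the embryo mean, and in 189 lower windows (30.4%), with 0.715, 0.661 and 0.418. All 3 embryos were at least 0.2 outside the range of the gametes in 79 of 672 higher windows (11.8%) and 80 of 622 lower windows (12.9%). In the 79 windows, the median was 0.180 in the oocyte, 0.148 in sperm, 0.536 at cleavage, 0.500 at blastula and 0.481 at gastrula. The medians of the 80 windows were 0.723, 0.767, 0.355, 0.386 and 0.417 in the same order. The pair of gamete libraries and the embryo libraries may come from different animals, and a difference between animals and a change after fertilization cannot be told apart here.

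**Figure D5:**
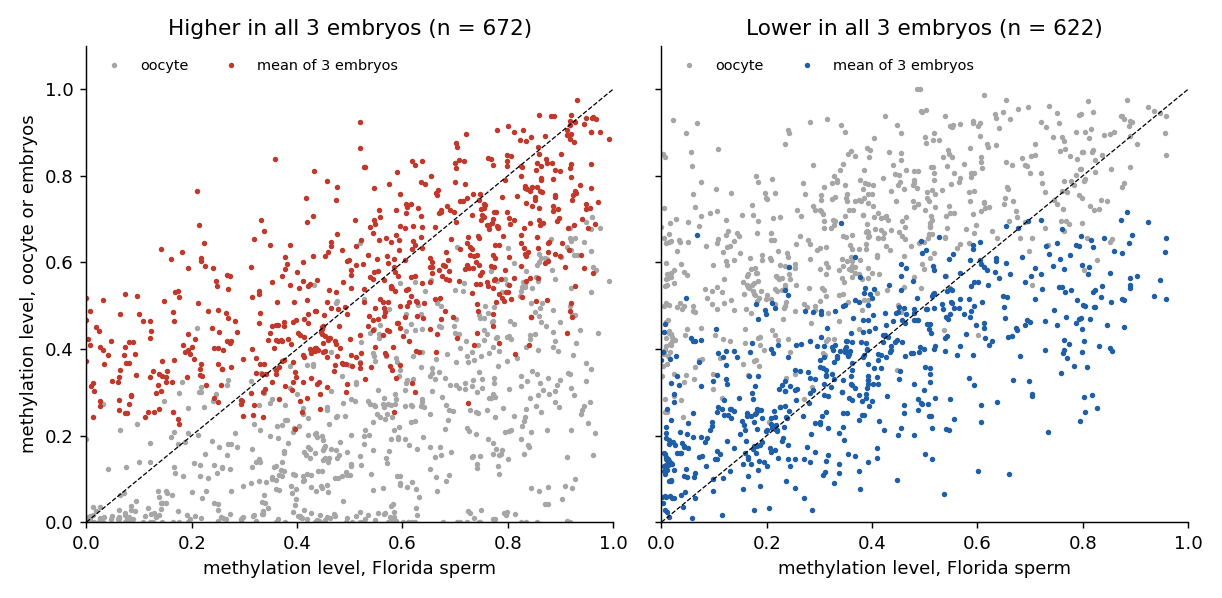
Methylation level in the oocyte (grey) and mean level in the 3 embryos (coloured) on the y axis against the level in Florida sperm (x axis), for windows higher (left, n = 672) and lower (right, n = 622) in all 3 embryos. The coloured points lie around the dashed line of equal levels, with a set of windows in which they lie well above it (left) or below it (right).

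Part of these windows was also called between sperm and the embryos. Sperm was called against an embryo in 25.5% to 27.2% of higher and 24.3% to 25.4% of lower windows, while 1.22% of all windows were called for cleavage, 0.949% for blastula and 0.971% for gastrula. The shares were not matched for level, and 75.1% of all windows with levels in the oocyte and embryos lay below 0.2 in the oocyte. Of all windows, 0.461% were higher and 0.755% lower in cleavage embryos than in sperm, 0.402% and 0.547% in blastulae, and 0.38% and 0.592% in gastrulae. Among the higher windows, 103 had more methylation than sperm at cleavage and 68 had less, and the counts were 101 and 82 for blastula and 96 and 81 for gastrula. Among the lower windows, 43 had more methylation than sperm at cleavage and 108 had less, with 49 and 109 for blastula and 44 and 111 for gastrula. Since the embryo values chose the windows, embryos above sperm in higher windows and below it in lower windows follow in part from the choice, and 464 to 500 windows per direction and comparison were not called against sperm.

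The Massachusetts libraries lay nearer to the Florida embryos in most higher windows, but not in most lower windows. In higher windows, the median level was 0.642 in Massachusetts sperm, 0.755 at cleavage and 0.717 at blastula, and 76.6% to 84.6% of windows were nearer to the Florida embryo mean than to the Florida oocyte. In lower windows, the medians were 0.542, 0.693 and 0.680, and only 34.0% to 47.3% were nearer to the Florida embryos. Over all covered CpGs, the Massachusetts libraries had a mean level of 0.130 to 0.142, against 0.111 to 0.116 in the Florida libraries. The part of this higher level in these positions was not tested. The windows were also chosen for a Florida oocyte that differs from other libraries. In both directions, the Massachusetts embryos were above the Florida embryos at the median, and no oocyte library from Massachusetts was read. Their depth was lower, with a median of 9 reads per CpG at cleavage, and levels rest on 553 to 642 windows. Pearson's r with the Florida embryo mean was 0.239 to 0.3002 for the Massachusetts embryos and 0.499 to 0.541 for the sperm, against 0.673 to 0.684 for Florida sperm. With the Florida oocyte, it was 0.189 to 0.260, 0.431 to 0.471 and 0.575 to 0.632 in that order.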

How the data were processed

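The sources used here state that the authors trimmed reads with Trimmomatic, mapped them with Bismark to ASM20922v1 together with lambda DNA, and merged both strands of a CpG. The submitters' processing notes name SAMtools 0.1.19, and give no version for the other tools. The deposited calls give, for each CpG, counts of reads with and without methylation, and the authors' methylation level as a fraction, not corrected for non-conversion. Levels were recomputed here from the counts. Deposited starts were taken to count from 0. No genome or annotation of this build was used, so genes, planned gene lists and sequences were not analysed here.

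CpGs with at least 5 reads in both libraries were put into 1000-bp windows, kept with at least 3 CpGs. Reads summed over a window were compared by 2-sided Fisher's exact test with Benjamini-Hochberg adjustment over all windows of a comparison. A call required an adjusted p below 0.05 and mean levels at least 0.2 apart, and the test was run on simulated data. Named windows were the 8 per direction with the largest smallest-of-3 difference among those with at least 10 CpGs in all 4 libraries, at most 1 per run, plus the longest runs and 2 windows on each side of the threshold, of which 1 is printed. The spacing of CpGs was added after the largest windows had been seen. Intervals cover counting error only, as reads are not independent molecules. Alternatives were read and CpG minimums, size and grid of windows, thresholds, pooled reads, libraries thinned to equal total reads, high-depth CpGs and non-conversion. The windows, thresholds and lists were chosen with earlier results of these data known. Python 3.11.15, numpy 2.4.6, pandas 2.3.3, numba 0.67.0, scipy 1.17.1 and matplotlib 3.10.9 were used.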

Additional observations from a re-analysis of the deposited data

Results flagged for a closer look

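The mean level over shared CpGs moved in opposite directions in different embryos, which is why these values are listed. Relative to the oocyte, it was higher by 0.00133 at cleavage and by 0.000593 at gastrula, and it changed by -0.000988 at blastula. With 1 library per stage, this difference between embryos was not tested, and the signs depend on the processing. In 136262 windows below 0.05 in all 8 sea anemone libraries, the median level was 0.00819 in the oocyte, 0.0109 at cleavage, 0.00665 at blastula and 0.00862 at gastrula, so levels in nearly unmethylated windows differed between libraries by amounts of this size. Their part in the differences was tried only by subtraction.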

How the results depend on the processing

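Across other read, CpG, p-value and depth settings and a grid shifted by 500 bp, the windows called in all 3 embryos numbered 987 to 1872, against 1306. The highest was with the median over CpGs, where blastula and gastrula moved to 3994 and 3908 (cleavage 4403), and the lowest was with windows of even depth. A minimum difference of 0.3 left 1112, 891 and 890 windows at cleavage, blastula and gastrula and 420 in all 3, and 500-bp windows gave 6719, 5667, 5713 and 2714. With at least 10 reads per CpG, 77.9% of the 1306 windows were called again, and with libraries thinned to equal total reads 79.2%. For the 16 largest windows, all 137 values that alternatives gave kept their direction and call. Part of this was fixed in advance, as these windows were picked for large differences (at least 0.480) and at least 10 CpGs. Their adjusted p in the exact tests was at most 8.88e-19. The minimum difference of 0.3, the higher CpG minimum and the stricter p threshold could therefore not drop them. The other alternatives reuse the same reads, so the count is no independent check. No value was had at 10 reads per CpG for 5 of the 8 largest gains (both on scaffold_656, both on scaffold_104 and that on scaffold_11), nor with thinned libraries for that from 56001 on scaffold_656 and that on scaffold_11. The mean sperm level in these windows was 0.549 in higher and 0.385 in lower windows, moving to 0.382 in the latter with at least 10 reads, and to 0.551 and 0.383 with thinned libraries.

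The genome-wide difference of cleavage from the oocyte became 0.00123 with at least 10 reads, -0.00309 with pooled reads, -0.000669 with non-conversion subtracted and -0.00134 with the level of low windows subtracted. That of blastula became -0.00102 with at least 10 reads, -0.00106 with thinned libraries, -0.00103 with CpGs covered in all 4 libraries, 0.00771 with pooled reads, 1.2e-05 with non-conversion subtracted and 0.000544 with the level of low windows subtracted. That of gastrula became 0.000537, 0.000548 when thinned, 0.00575 when pooled, -0.00341 with non-conversion subtracted and 0.000154 with low windows subtracted. The cause of these turns was not tested.

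The median over CpGs, the subtraction of low windows, the restriction to even depth and leaving out cleavage were chosen after seeing the data. No paired analysis was possible because each stage has 1 set of counts, which also leaves no replicate to omit. With 1 library a stage, a difference between animals, cultures or libraries cannot be told apart from a difference between stages. Cleavage had a median of 14 reads per CpG, and how far this depth bears on the calls in all 3 embryos was tried only through the alternatives above.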
